A study of Mus musculus with 282 samples.

Results

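The genes described here lie in a 5 Mb interval of mouse chromosome 15 (95.5 to 100.5 Mb in mm10), a region the study singled out because the levels of many genes on other chromosomes followed its variants. The members were chosen by position: every gene locus of the submitters' merged assembly whose first exon base falls in the interval and that has a row among the deposited gene levels. This gave 58 loci of 14079 gene rows, 12524 of which had a position in the assembly; 438 other loci lay elsewhere on the chromosome. The study named 10 local genes for the region, and 9 of them were found (Dbx2, Endou, Rapgef3, Hdac7, Col2a1, Zfp641, Adcy6, Ccdc65 and Tuba1b), while 4930578M01Rik was not analysed here. Since those 9 were chosen by the study from these mice, and the interval for its associations elsewhere, they are described without a test, and tests are given for the 49 other loci.

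RNA-seq covered 282 male mice of the Hybrid Mouse Diversity Panel, fed a high fat diet, with the hypothalamus taken whole. The panel's 99 strains used here are a collection of classical inbred strains and of recombinant inbred strains. The recombinant sets descend from crosses of C57BL/6J with DBA/2J (BXD, 43 strains and 126 mice), A/J (AXB and BXA, 18 strains and 47 mice), C3H/HeJ (BXH, 6 strains and 16 mice) and BALB/cJ (CXB, 7 strains and 21 mice), and 25 inbred strains gave 71 mice. One further mouse carried the names of 2 strains in its labels and entered no comparison. Most strains (85) had 3 mice, 12 had 2 and 2 had 1. No gene was altered in any group, all mice shared the sex and the diet, and a group as used here is a strain, so a difference between strains is that of the whole genome and not of one locus.

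The interval is dense in housekeeping and neuronal genes. It holds a cluster of alpha-tubulin genes, whose products pair with beta-tubulin to build microtubules, the tracks and struts of axons. Around the cluster lie genes of cyclic AMP signalling, in which adenylyl cyclases such as Adcy6 make the messenger and exchange factors such as Rapgef3 (Epac1) sense it, and transporters of amino acids, haem and iron.

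Levels are FPKM, fragments scaled to transcript length and to library size, as deposited, and tests were made with limma on log2(FPKM + 1) with Benjamini-Hochberg adjustment over all gene rows. The strain share is the part of the variance between mice that lies between strains (an intraclass correlation, which can fall slightly below 0). Reads of whole hypothalamus cannot tell fewer cells of a type from less RNA per cell.

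Tissue markers and some libraries bear on these levels. All 6 hypothalamic marker genes were present, with a summed level of 826 to 9173 FPKM over the mice. Pomc, which is on that list, alone ran from 1.45 to 6851 FPKM. The 6 anterior pituitary markers found ran from 0.589 to 16462 FPKM in sum, and the 5 choroid plexus markers found from 7.25 to 2101. A group of 18 mice from 7 strains (all mice of BXD-9/TyJ, BXD62, BXD70, BXD75, BXD85 and BXHA1, and 1 of BXD87) listed 1659 to 2051 of 16475 well-expressed transcripts at 0, against a median of 188 in 262 others. In 2 more mice, BXD-12/TyJ replicate 2 and CXB-3/ByJ replicate 3, the gene levels summed to 792801 and 463433 FPKM against a median of 337467. The mouse labelled CXB-7/ByJ replicate 3 had a correlation of -0.0708 with its strain mates and 0.939 with BXA-12/PgnJ over 212 genes elsewhere that vary most by strain. Results that rest on these 21 mice are given with and without them.

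Tuba1c, an alpha-tubulin gene, varied more between strains than any other locus of the interval and was not among the study's listed genes. Its level was 5.97 FPKM ± 6.75 (SD, n = 282), from 0.116 to 22.4 with a median of 1.40, and strains ranged from 0.220 FPKM in AXB-6/PgnJ to 20.7 in RIIIS/J. Strain means fell into separate levels: 52 strains lay below 2 FPKM and none of those exceeded 1.14, while 28 lay above 8. The strain share was 0.952 (limma F test over strains, adjusted p = 3.47e-100), and 0.973 without the 21 mice.

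Because Tuba1c stands beside 2 near-identical paralogs, its sequence is shown with theirs. Coding sequences (GENCODE M21, GRCm38) of Tuba1a and Tuba1b were 98.3% identical, those of Tuba1a and Tuba1c 97.2%, and those of Tuba1b and Tuba1c 98.0%, with an unbroken identical run of 468 bases in the last pair. Of all 50-base stretches of their annotated transcripts, 75.5% in Tuba1a, 75.1% in Tuba1b and 52.7% in Tuba1c also occurred in another gene. The 60 coding bases from position 640 to 699, the window in which the genes differ most, read as follows, with the 10 positions at which not all 3 genes have the same base in capitals.
Tuba1a, minus strand, chr15:98950691-98950750: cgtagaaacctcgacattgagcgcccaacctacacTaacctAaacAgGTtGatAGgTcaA
Tuba1b, minus strand, chr15:98932239-98932298: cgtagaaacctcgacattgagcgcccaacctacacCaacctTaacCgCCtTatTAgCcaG
Tuba1c, plus strand, chr15:99037299-99037358: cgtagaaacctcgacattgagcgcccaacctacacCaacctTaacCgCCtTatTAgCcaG

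Tuba1b and Tuba1c were the same over this window, so a 50-base read lying wholly inside it fits both genes. The authors' aligner kept reads with several matches, so the division of reads among the 3 tubulins is an estimate, and each tubulin value below carries that uncertainty. The 250 bases before the RefSeq start of Tuba1c (GRCm38.p6, plus strand, chr15:99029641-99029890) are shown because its levels are so unequal between strains; the sequence is that of the C57BL/6J reference, a strain of the low level. Capitals mark the matches to the motifs searched.
Tuba1c, 250 bases upstream: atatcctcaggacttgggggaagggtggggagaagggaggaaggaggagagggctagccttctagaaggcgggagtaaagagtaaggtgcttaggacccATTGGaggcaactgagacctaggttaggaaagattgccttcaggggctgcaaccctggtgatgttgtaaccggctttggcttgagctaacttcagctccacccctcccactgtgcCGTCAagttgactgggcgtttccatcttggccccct

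On both strands, 5 motifs were searched: the cyclic AMP response half-site (TGACG), its full form (TGACGTCA, which contains the half-site), the CCAAT box (CCAAT), the TATA box (TATAA) and the GC box (GGGCGG). Tuba1c held 1 CCAAT box, 151 bases upstream on the minus strand, and 1 half-site, 36 bases upstream on the minus strand. Tuba1a held a CCAAT box, a TATA box and a GC box, and Tuba1b held 2 GC boxes. Of the names in the interval, 47 of 62 matched a RefSeq promoter entry, with 60 promoters; the half-site occurred in 26.7% of these and in 17.8% of 32851 mouse promoters, the full form in 0% and 1.55%, the CCAAT box in 31.7% and 33.8%, the TATA box in 11.7% and 22.8%, and the GC box in 55% and 32.7%. A match is a run of letters and not a bound site.

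The parental strains placed the Tuba1c levels. In C57BL/6J the 3 mice had 0.564, 0.534 and 1.08 FPKM, and in BALB/cJ 0.630, 0.610 and 0.712. DBA/2J mice had 4.42, 6.12 and 6.32 FPKM. A/J mice had 14.4, 14.7 and 12.2, and C3H/HeJ mice 14.7, 16.0 and 16.4. No mouse of DBA/2J, A/J or C3H/HeJ overlapped C57BL/6J, whereas BALB/cJ did. On the log2(FPKM + 1) scale the difference from C57BL/6J was 1.94 (SE 0.258, adjusted p = 2.21e-10) in DBA/2J, 3.11 (SE 0.258, adjusted p = 2.14e-22) in A/J, 3.29 (SE 0.258, adjusted p = 1.34e-24) in C3H/HeJ and -0.05 (SE 0.258, adjusted p = 0.957) in BALB/cJ. All 4 differences use the same C57BL/6J mice.

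Recombinant strains fell on the parental levels of Tuba1c. Of 43 BXD strains, 22 lay nearer C57BL/6J, between 0.395 and 1.12 FPKM, and 21 nearer DBA/2J, between 3.76 and 12. Among the AXB and BXA strains 7 lay nearer C57BL/6J and 11 nearer A/J, the latter at 12.1 to 20.4 FPKM. Of 6 BXH strains, 1 had the high level, at 14.5 FPKM. In the CXB set, with both parents low, 6 strains lay below 2 FPKM; the exception, CXB-7/ByJ, had 0.845 and 0.687 FPKM in 2 mice and 19.2 in the mouse whose other genes went against its label. It was the only strain whose mice fell on different levels.

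**Figure D1:**
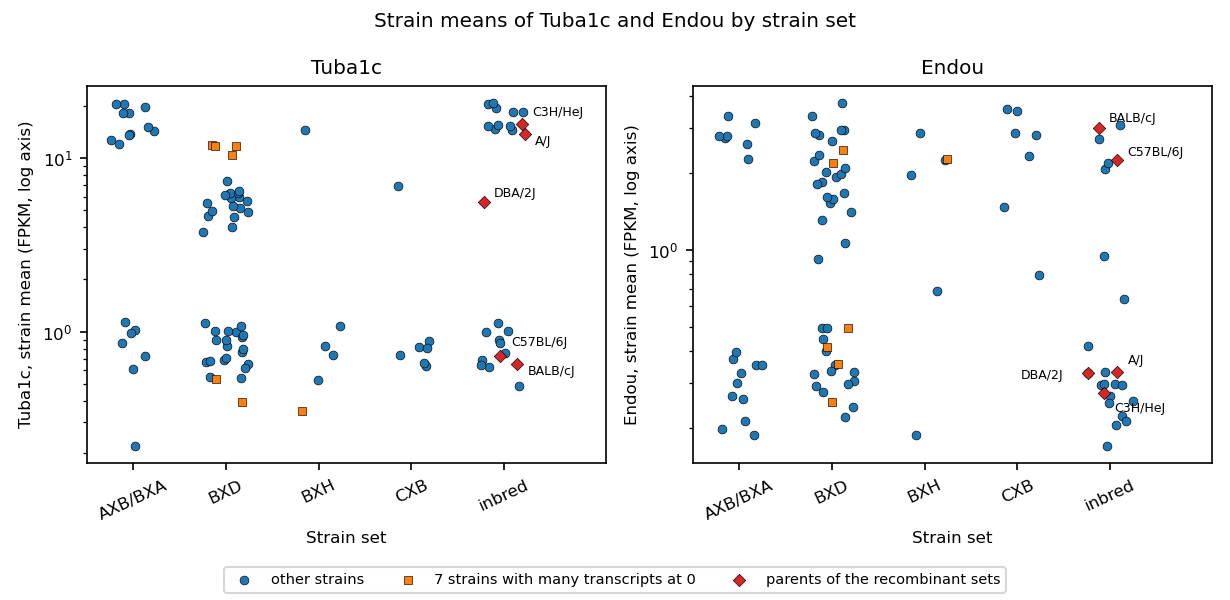
Strain means of Tuba1c (left) and Endou (right) in FPKM on log axes, each point 1 strain, by strain set; diamonds are the parents of the recombinant sets and squares the 7 strains with mice that listed many transcripts at 0. Tuba1c lies at separate low and high levels, with DBA/2J at 5.62 FPKM between C57BL/6J at 0.726 and C3H/HeJ at 15.7, and Endou is low in DBA/2J, A/J and C3H/HeJ.

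Within the BXD set the high level was itself uneven. In 17 strains it ran from 3.76 to 7.34 FPKM with a median of 5.49, which spans the DBA/2J value. In the other 4, BXD-9/TyJ, BXD62, BXD75 and BXD85, it ran from 10.4 to 12 FPKM, and every mouse of these 4 strains belonged to the 18 with many transcripts at 0. The other 3 strains with mice in that group, BXD70, BXD87 and BXHA1, had the low level, at 0.395, 0.537 and 0.351 FPKM. The part of the library group in the higher values was not tested.

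Tuba1b and Tuba1a were far more abundant than Tuba1c. Tuba1a had the highest level of the interval, 384 FPKM ± 41.4 (SD, n = 282), a strain share of 0.201 (adjusted p = 0.00184) and 0.361 without the 21 mice. Tuba1b, listed by the study, had 72.8 FPKM ± 22.0 (SD, n = 282), a strain share of 0.478, and 0.726 without the 21 mice; BXD-12/TyJ replicate 2 alone had 362 FPKM against 64.7 in its strain mates. C57BL/6J mice had 83.6, 71.1 and 77.7 FPKM of Tuba1b, BALB/cJ mice 83.3, 83 and 90.8, DBA/2J mice 66.8, 66 and 66.2, and A/J mice 62.9, 58.8 and 62.8. C3H/HeJ mice had 73.7, 56.7 and 76.4. The strains low in Tuba1c thus held the larger Tuba1b values, with overlap only for C3H/HeJ.

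Transcript rows showed a larger contrast within Tuba1a than its gene level did. The first of 2 known 3-exon transcripts (chr15:98950258-98953551) had 72.2, 102 and 114 FPKM in C57BL/6J and 73.9, 72.9 and 12.1 in BALB/cJ, and no DBA/2J, A/J or C3H/HeJ mouse exceeded 0.237. The other, of 610 bases (chr15:98950555-98953542) ran the other way, with 165, 131 and 128 FPKM in DBA/2J and at most 0.898 in C57BL/6J. Their strain shares were 0.898 and 0.821 (limma F test over transcripts), and 0.921 and 0.853 without the 21 mice. The main 4-exon transcript of 1647 bases had 322.7, 287.7 and 297.6 FPKM in C57BL/6J against 216.0, 236.9 and 218.3 in DBA/2J, 0.43 lower on the log2(FPKM + 1) scale (SE 0.105, adjusted p = 0.00507).

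The first of these short Tuba1a transcripts and Tuba1c mirrored each other strain by strain. In 46 strains the short transcript averaged under 1 FPKM and Tuba1c over 2, and in 52 the reverse held. CXB-7/ByJ was high in both means. Its Tuba1c mean rests on the mouse that went against its label, with 19.2 FPKM against 0.845 and 0.687 in the others. No strain was low in both. Since the genes share sequence, and transcript levels of this kind are apportioned by the estimator, the part of shared reads in this pattern was not tested.

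**Figure D2:**
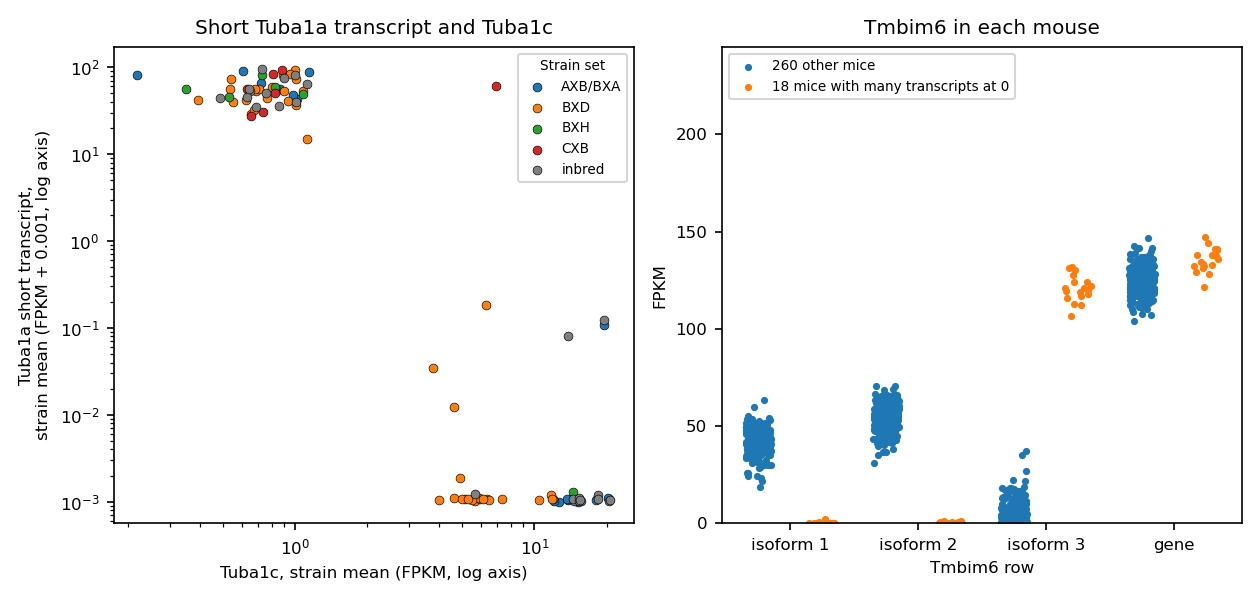
Left, strain means of the short Tuba1a transcript against Tuba1c (FPKM, log axes, 0.001 added to the transcript), 1 point per strain, coloured by set; 46 strains lie low in the transcript and high in Tuba1c and 52 the reverse. Right, FPKM of 3 Tmbim6 isoform rows and of the gene in 18 mice with many transcripts at 0 and in 260 others, 1 point per mouse; isoforms 1 and 2 lie near 0 in the 18 mice, where isoform 3 has a median of 121 FPKM.

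Endou, an endoribonuclease gene and the listed gene with the largest strain share (0.782, and 0.798 without the 21 mice), was low where Tuba1c was high. C57BL/6J mice had 1.45, 2.47 and 2.79 FPKM and BALB/cJ mice 3.65, 2.98 and 2.35. In DBA/2J the values were 0.262, 0.129 and 0.598, in A/J 0.305, 0.480 and 0.210, and in C3H/HeJ 0.357, 0.349 and 0.116. The 2 groups of strains did not overlap, with differences of -1.27, -1.26 and -1.33 on the log2(FPKM + 1) scale, each with SE 0.277.

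Endou and Tuba1c start 1.32 Mb apart, and most recombinant strains lay on the same parental side for both. A strain was placed by which parent its mean was nearer. Both genes fell on the same parental side in 38 of 43 BXD strains, 18 of 18 AXB and BXA strains and 5 of 6 BXH strains. The exceptions were BXD-19/TyJ, BXD-20/TyJ, BXD-38/TyJ, BXD51, BXD74 and BXHB2. Endou values spread within some strains, regardless of parental side. In 9 strains the highest mouse had at least 1.28 FPKM and the lowest at most 0.489, among them C57L/J with 3.03, 2.92 and 0.256 FPKM. The 9 include CXB-7/ByJ, where the lowest mouse, at 0.149 FPKM, is the mouse that went against its label. Also among the 9 are BXD-19/TyJ (1.38, 1.24 and 0.137 FPKM), BXD-20/TyJ (2.34, 1.25 and 0.325) and BXD-38/TyJ (0.459, 0.828 and 1.90). These strains are among the exceptions above, and with such a spread their placing by the Endou mean is uncertain.

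Rapgef3, a cyclic AMP-activated exchange factor, and Zfp641, a zinc-finger gene, moved less. Rapgef3 had 22.9, 17.3 and 22.1 FPKM in C57BL/6J and 14.3, 17.0 and 15.1 in A/J, with no overlap, and 12.5, 19.2 and 15.9 in C3H/HeJ, which did overlap; its strain share was 0.549. Zfp641 had 5.38, 5.0 and 5.03 FPKM in C57BL/6J, 3.79, 3.14 and 3.48 in A/J and 3.57, 3.28 and 3.79 in C3H/HeJ, with a share of 0.559. In AXB and BXA strains Endou and Rapgef3, 0.0338 Mb apart, lay on the same side in 17 of 18. For Endou and Zfp641 it was 16 of 18.

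The remaining listed genes had smaller shares. Dbx2, a homeobox gene of the ventral neural tube, had 3.23 FPKM ± 0.573 (SD, n = 282) and a share of 0.367. Col2a1, the cartilage collagen, had 2.40 FPKM ± 0.883 and 0.373, from an assembled locus that covers only chr15:97975602-97977193. Ccdc65, a gene of motile cilia, had 4.93 FPKM ± 0.722 and 0.251. Adcy6 had 16.0 FPKM ± 1.73 and 0.203, and Hdac7, a class IIa histone deacetylase, 10.5 FPKM ± 2.16 and 0.186.

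Over the 49 other loci, 36 varied between strains past the test (73.5%), against 75.4% of all 14079 gene rows. Without the 21 mice the count was 40 of 49, against 80.6% of all rows. The median strain share was 0.236 in these loci, 0.373 in the 9 listed ones, 0.222 over all gene rows and 0.214 over the other loci of the chromosome. As a group, the genes beyond the list thus varied by strain about as often as genes anywhere.

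**Figure D3:**
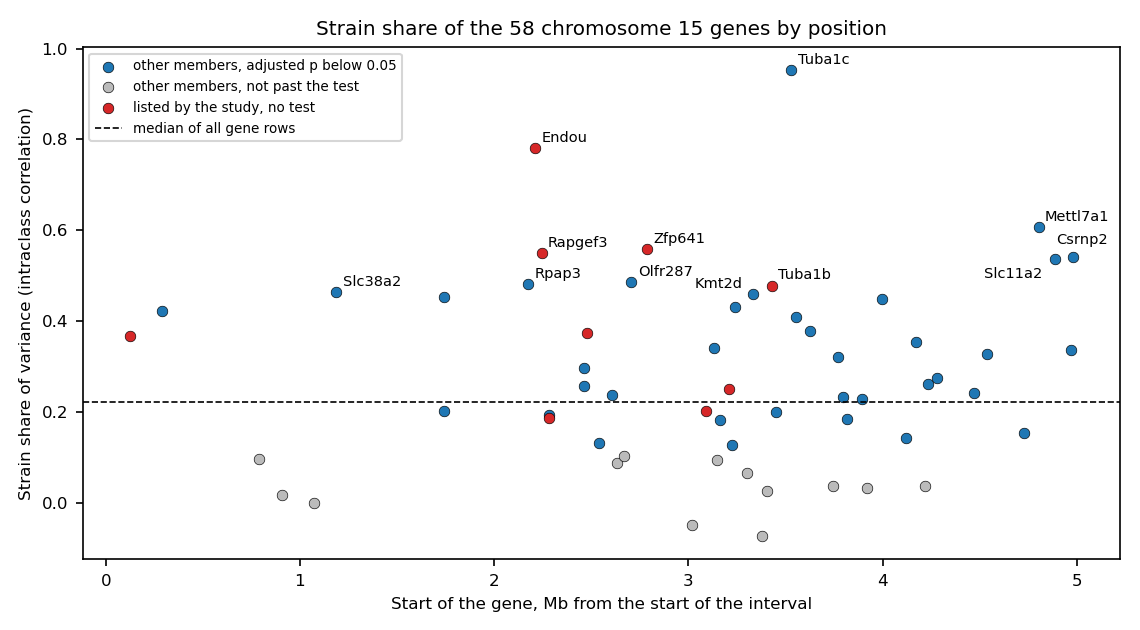
Strain share of variance of each of the 58 loci against its start in Mb from the start of the interval; blue points passed the limma F test, grey did not, and red are listed by the study with no test. Tuba1c (0.952) and Endou (0.782) stand highest, and points above and below the median of all gene rows (0.222) lie side by side along the interval.

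Channels and transporters passed in 6 of 7 loci, a count to be read, like those of the role lists that follow, against the 75.4% of all gene rows. Slc38a2, a sodium-coupled neutral amino acid transporter, ranged over strains from 22.3 FPKM in BXD-15/TyJ to 37.0 in SM/J (median 30.8), with a share of 0.463 (adjusted p = 2.07e-12). Ano6, a calcium-activated scramblase and channel, ranged from 6.28 FPKM in CXBH to 8.83 in SM/J, with a share of 0.423. Cacnb3, a beta subunit of voltage-gated calcium channels, ranged from 30.4 to 51.5 FPKM (share 0.342). It correlated at 0.553 over strain means with the summed cortical and hippocampal markers, whose part was not tested. Only 2 of those 4 markers were found, Slc17a7 at a mean of 27.9 FPKM and Tbr1 at 1.78, so that sum is mostly Slc17a7. Slc48a1, a haem transporter, had a share of 0.194 (0.319 without the 21 mice) and a correlation of 0.624 with the summed oligodendrocyte markers, whose part was not tested either.

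Slc38a1, a glutamine transporter of neurons, was the exception, with a share of 0.000682 (adjusted p = 0.477). Its level was 52.8 FPKM ± 6.98 (SD, n = 282), with a median of 54.0, but CXB-3/ByJ replicate 3 had 6.74 FPKM against 53.5 in its strain mates and BXD-12/TyJ replicate 2 had 3.35 against 55.8. Without the 21 mice the share was 0.150 (adjusted p = 0.0156). Below the gene level, 2 of its transcripts varied strongly: a known 16-exon one of 7752 bases had 5.80, 4.53 and 5.83 FPKM in C57BL/6J and 0.309, 0.0403 and 1.14 in DBA/2J, and an unannotated one of 7760 bases, listed at 0 in all 3 C57BL/6J mice, had 5.53, 5.39 and 2.95 in DBA/2J. Their strain shares were 0.645 and 0.688.

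In the cytoskeleton list 5 of 6 loci passed. Beside the tubulins these were Prph, the intermediate filament peripherin (share 0.410), Lima1 (0.275) and Fmnl3 (0.185), which build or bind actin; Ddn/Prkag1, a locus that joins dendrin with a subunit of AMP-activated kinase, did not pass (share 0.0665, adjusted p = 0.147). In that locus 1 transcript of Ddn varied widely, at 12.2 FPKM ± 11.6 (SD, n = 282), and the locus correlated at 0.552 with the choroid plexus markers.

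In transcription and chromatin 5 of 9 loci passed. Csrnp2 had the largest share (0.542). Kmt2d, a histone H3K4 methyltransferase, ranged over strains from 9.44 FPKM in BXH-9/TyJ to 17.4 in BXD-24/TyJ, with a share of 0.459 (adjusted p = 1.88e-12) and 0.568 without the 21 mice. Arid2, a subunit of a SWI/SNF complex, did not pass (share 0.0955, adjusted p = 0.0721), with 120 FPKM in CXB-3/ByJ replicate 3 against a median of 6.64; without the 21 mice it had 0.128 (adjusted p = 0.0373). Neither Ccnt1/Kansl2 (share -0.0481) nor Mcrs1 (0.0368) nor Bcdin3d/Nckap5l (0.0318) passed, though Bcdin3d/Nckap5l did without the 21 mice (0.131, adjusted p = 0.0287). Up to 34.7% of 50-base stretches in Kansl2 and 29.1% in Mcrs1 occur in another gene.

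Of 6 RNA processing loci 4 passed. Rpap3, a co-chaperone of RNA polymerase assembly, ranged over strains from 7.52 FPKM in SWR/J to 15.7 in BXD-12/TyJ, with a share of 0.482 (0.554 without the 21 mice). That upper end rests on BXD-12/TyJ replicate 2, with 23.3 FPKM against a median of 11.9 in its strain mates. The highest mean among inbred strains was 12.7 FPKM, in KK/HlJ. Prpf40b, a splicing factor, passed at 0.234 (adjusted p = 0.000235) but not without the 21 mice, at 0.0753 (adjusted p = 0.131); its median was 42.9 FPKM in the 18 mice with many transcripts at 0 and 29.0 in 260 others. Scaf11 (share 0.0181) and Ddx23 (0.0940) did not pass.

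Signalling genes passed in 4 of 8 loci. Arf3, a small GTPase of the Golgi, was at 167 FPKM ± 12.8 (SD, n = 282), the second highest level of the interval, and its strain means ran from 145 to 197 (share 0.432, adjusted p = 2.46e-10). Rnd1, an atypical small GTPase, had a share of 0.182, Tmem106c 0.298 and Racgap1 0.142. Asb8, Rhebl1, Ddn/Prkag1 and Bcdin3d/Nckap5l did not pass, but without the 21 mice Asb8 (share 0.155, adjusted p = 0.0179) and Bcdin3d/Nckap5l did.

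Genes of metabolism, organelles and cell death passed in 8 of 9 loci, where 75.4% of all gene rows did. Mettl7a1, a methyltransferase-like protein of lipid droplets, had the second largest share of the 49 loci (0.607, adjusted p = 1.32e-21), with strain means from 9.84 FPKM in NZW/LacJ to 20 in BXD50, yet the 5 parental strains lay together at 12.5 to 17.9 in their mice. Of its 50-base stretches 17.2% occur in another gene, most of them in its neighbouring paralogs. Faim2, a Fas inhibitor of neurons, was at 166 FPKM ± 15, with a share of 0.450. Pfkm, the muscle-type phosphofructokinase, was at 114 FPKM ± 8.57 (share 0.236, and 0.364 without the 21 mice), and Tmbim6, an inhibitor of cell death in the endoplasmic reticulum, at 126 FPKM ± 9.20 (share 0.228). Cox14/Gpd1 did not pass (share 0.0366, adjusted p = 0.284), though it did without the 21 mice (0.148, adjusted p = 0.0167) and without BXD-12/TyJ replicate 2 alone (0.127); its transcripts averaged 39.3 FPKM for Cox14 and 7.52 for Gpd1.

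Amigo2, a neuronal adhesion protein, passed (share 0.454), and Lmbr1l, a membrane receptor listed with it, did not. Of 5 loci with no assigned role 4 passed. Olfr287, an olfactory receptor gene, had a share of 0.486 at 2.02 FPKM ± 0.669, and 33.7% of its 50-base stretches occur in other genes, nearby receptors among them. The locus XLOC_013505 (chr15:97962967-97964146, 1180 bases) overlaps no exon of GENCODE M21 and lies 73 bases from Tmem106c; it had 0.705 FPKM ± 0.375, a share of 0.258 (adjusted p = 5.71e-05) and a correlation of 0.591 with Tmem106c over strain means. The libraries were not stranded, so reads of overlapping neighbours, such as Amigo2 and Pced1b, Hdac7 and Slc48a1 or Prpf40b and Fam186b, could not be told apart by strand.

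The parental contrasts beyond the listed genes were few. In DBA/2J against C57BL/6J 1 of 49 loci passed, where 6.88% of all gene rows did, and it was Tuba1c. In A/J 3 passed, against 8.01% of all rows, and 5 passed without the 21 mice. In BALB/cJ 2 passed, against 6.79%. In C3H/HeJ 4 passed, against 7.59%. The 4 contrasts share the C57BL/6J mice and are set side by side.

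Olfr287 was lower in 2 parents. C57BL/6J mice had 2.04, 3.21 and 2.88 FPKM, A/J mice 0.501, 0.543 and 0.617, with no overlap, and the difference was -1.24 (SE 0.190, adjusted p = 4.94e-08). In C3H/HeJ it was -0.70 (SE 0.190, adjusted p = 0.00742), and this call was lost when replicate 2 or 3 of every strain was left out. AXB and BXA strains split 9 and 9 between the parental sides, and BXH strains 3 and 3.

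Fmnl3, a formin that assembles actin filaments, was higher in A/J, with 5.81, 6.64 and 5.29 FPKM against 4.24, 4.61 and 3.47 in C57BL/6J (difference 0.44, SE 0.150, adjusted p = 0.0489). That call was lost under 7 of the other settings tried, including both smaller pseudocounts. In C3H/HeJ, Ano6 was higher, with 7.89, 8.49 and 8.60 FPKM against 6.56, 7.25 and 6.93 (0.24, SE 0.0759, adjusted p = 0.0314), and Amigo2 lower, with 17.5, 21.2 and 18.4 against 27.9, 22.8 and 23.4 (-0.36, SE 0.108, adjusted p = 0.0184). Neither pair overlapped, but the Ano6 call was lost whichever replicate was left out, and the Amigo2 call without replicate 1 or 3. Ano6 correlated with the summed anterior pituitary markers at 0.451 over strain means and at 0.385 between mice of one strain. That sum was 152 FPKM ± 147 in C3H/HeJ and 4.14 ± 1.27 in C57BL/6J (SD, n = 3 each). Its part in the Ano6 values was not tested.

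**Figure D4:**
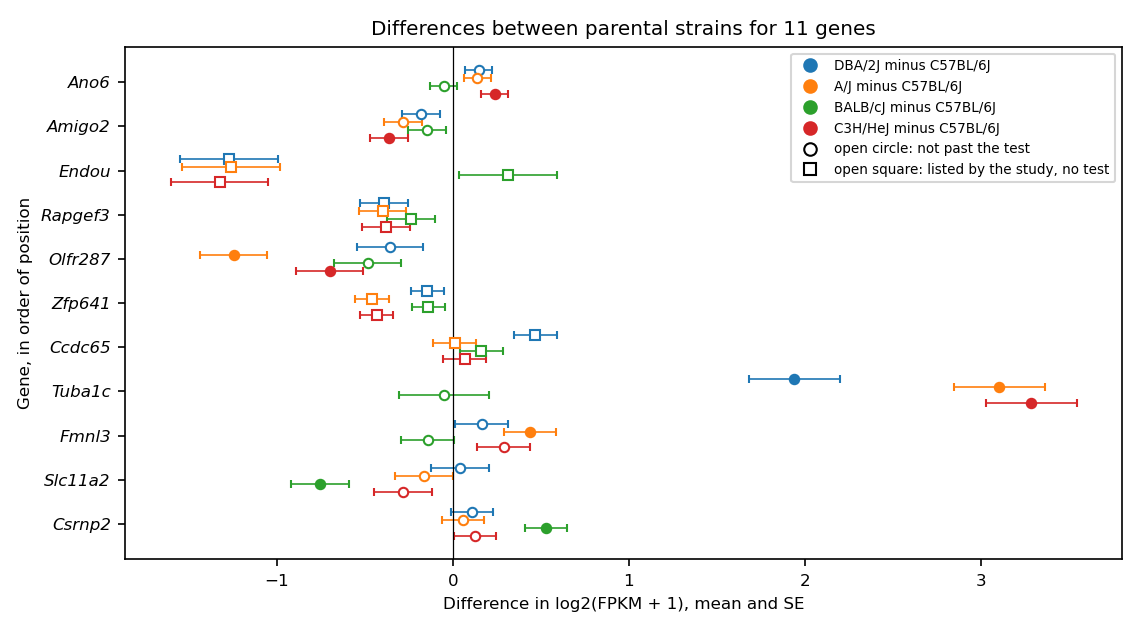
Difference of each parent from C57BL/6J in log2(FPKM + 1), with its SE, for 11 genes in order of position (3 mice per strain); filled circles passed the limma test, open circles did not, and open squares are genes listed by the study, with no test. Tuba1c differs by 1.94 to 3.29 in DBA/2J, A/J and C3H/HeJ, and Slc11a2 and Csrnp2 differ in BALB/cJ in opposite directions.

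At the distal end, BALB/cJ differed in 2 neighbouring genes. Slc11a2, the divalent metal transporter DMT1 that carries iron into cells, had 20.9, 20.7 and 15.4 FPKM in C57BL/6J and 10.6, 11.9 and 9.86 in BALB/cJ, a difference of -0.75 (SE 0.165, adjusted p = 0.000389). Csrnp2, a nuclear protein, had 3.36, 2.97 and 2.86 FPKM in C57BL/6J and 5.33, 4.54 and 4.73 in BALB/cJ, a difference of 0.53 (SE 0.120, adjusted p = 0.000692). Neither pair of groups overlapped. DBA/2J, A/J and C3H/HeJ did not pass for either gene, with differences from -0.28 to 0.04 for Slc11a2 and from 0.06 to 0.13 for Csrnp2.

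Among the transcripts of Slc11a2, 2 varied more between strains than the gene. The known 16-exon transcript of 4415 bases (chr15:100392563-100423002) had 9.80, 9.49 and 9.72 FPKM in C57BL/6J and 6.12, 5.65 and 6.54 in BALB/cJ (-0.59, SE 0.0960, adjusted p = 1.51e-06). An unannotated 15-exon isoform of 3731 bases had 3.75, 3.04 and 3.60 against 1.08, 1.23 and 1.71 (-0.94, SE 0.173, adjusted p = 3.96e-05). Their strain shares, 0.816 and 0.740, exceeded that of the gene, 0.537.

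Strain sets differed in which of these genes varied. Slc11a2 strain means ran from 10.4 FPKM in CBA/J to 19.6 in DBA/2J among the inbred strains (share within the set 0.605, adjusted p = 4.82e-12) and from 11.7 to 17.9 in CXB (0.509, adjusted p = 0.00301). The CXB values include 2 of the 21 mice. In CXB-3/ByJ, the lowest CXB strain, replicate 3 had 8.29 FPKM against a median of 13.3 in its strain mates. In CXB-7/ByJ, replicate 3 had 21.1 FPKM against 15.1. Slc11a2 strain means ran from 14.9 to 23.0 in BXD (0.0240, adjusted p = 0.420), with adjusted p = 0.558 in AXB/BXA and 0.703 in BXH. Csrnp2 followed with 3.06 to 5.19 FPKM in the inbred strains (share 0.560) and 3.21 to 4.89 in CXB (0.508), but it also varied in BXD (0.347, adjusted p = 2.27e-05, and 0.183, adjusted p = 0.0243, without the 21 mice). The difference between sets was not tested. Of 7 CXB strains, 6 had both genes on the same parental side, the exception being CXB-7/ByJ, whose replicate 3 is the mouse that went against its label.

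Over the 49 loci, counts within sets lay near those of all gene rows. Within AXB/BXA 11 passed, against 22.5% of all rows; within BXD 27, against 64.5%; within BXH 11, against 18.6%; within CXB 9, against 18%; and among inbred strains 22, against 47.8%. Without the 21 mice the counts were 20 (35.8% of all rows), 26 (58.9%), 11 (20.2%), 6 (15.4%) and 31 (64%). Tuba1c had shares of 0.979 in AXB/BXA, 0.946 in BXD, 0.961 in BXH and 0.986 among inbred strains, but -0.00656 in CXB (0.129 without the 21 mice). A fit to the CXB mice alone passed none of the 58 loci, with 5 at an unadjusted p under 0.05, so the CXB values of Slc11a2 and Csrnp2 rest on the spread shared with the other sets.

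Transcripts of the interval varied between strains about as often as transcripts elsewhere. Of the transcripts of the 58 loci, 117 were known, 89 were unannotated isoforms and 3 came from unannotated loci. On the strain test 94 passed, against 46.8% of 51024 transcripts; without the 21 mice 72 passed, against 31.7%.

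Some transcripts differed between the 18 mice and the rest. Tmbim6 has 3 isoform rows of 10 exons and 2452 bases. The 2 unannotated ones, which differ from each other at 6 exon boundaries by 1 base each, had medians of 42.5 and 54.3 FPKM in 260 mice and lay at or near 0 in the 18, none above 2.24. The known isoform had a median of 121 FPKM in the 18 and 0.8503 in the rest. The gene level was 135 against 125 FPKM in the median. Strain shares of the 2 unannotated isoforms fell from 0.912 and 0.938 to 0.141 and 0.221 without the 21 mice.

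A median below 0.01 FPKM in the 18 mice and above 1 in the rest was found in 19 transcripts of 9 genes (Asic1, Cacnb3, Gpd1, Prpf40b, Smarcd1, Spats2, Tmbim6, Tmem106c and Tuba1a). The Tuba1a transcript among them is the first short one, whose strain share did not fall without the 21 mice. At the gene level 4 loci differed by over 1 SD of the other mice, namely Arid2, Prpf40b, Tmbim6 and Asic1/Smarcd1. Neither count was made over all transcripts or gene rows, so these counts cannot set the interval apart from the rest of the genome.

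Strain means of loci in the interval were mostly unrelated. Over 1653 pairs of loci the median r was 0.0270 and the median absolute r 0.128, against 0.0309 and 0.135 over 426853 other pairs within 5 Mb on one chromosome. An absolute r of at least 0.5 was reached by 32 pairs (1.94%), against 2.48% of the other pairs. Pairs with starts within 0.1 Mb had a median r of 0.0734, and pairs 1 to 2 Mb apart 0.000701. For the 85 pairs within 0.1 Mb the median absolute r was 0.173, against 0.158 for other such pairs. Of those 85, 6 (7.06%) reached an absolute r of 0.5, against 4.88% of the other such pairs. All points share the strains, many of which share parents.

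**Figure D5:**
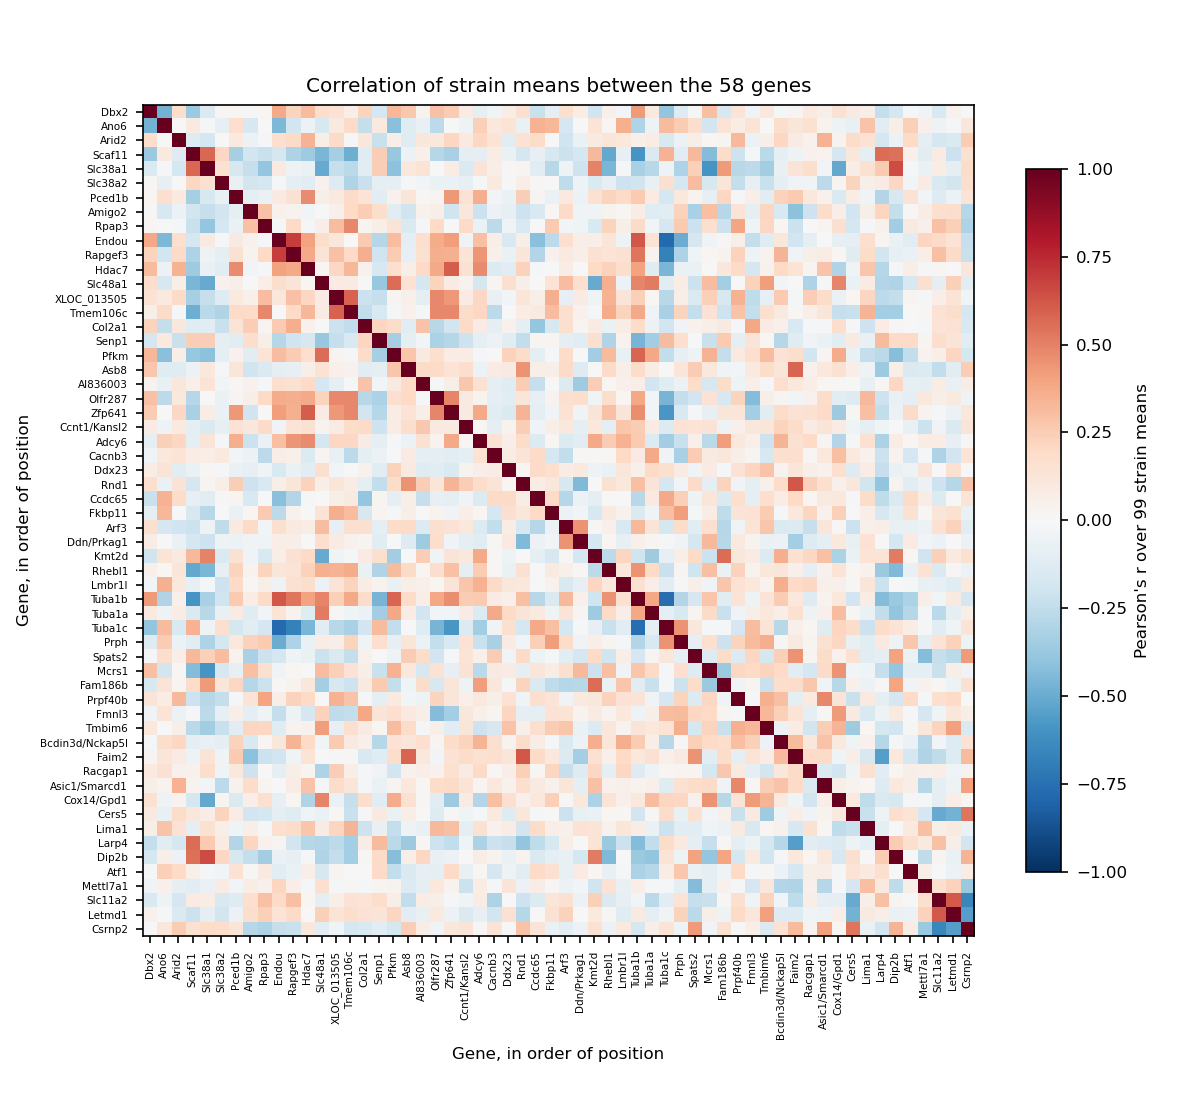
Pearson's r between the strain means of the 58 loci over 99 strains, in order of position on both axes; red is positive and blue negative. Most cells are pale (median absolute r 0.128), with a block of Slc11a2, Letmd1 and Csrnp2 at the distal end. Cells of Endou, Rapgef3, Tuba1b and Tuba1c with each other are also dark.

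Among pairs of loci beyond the study's list, the distal pair had the lowest r. No test is given for pairs with a listed gene, whose r ran from -0.781 to 0.691. Over 99 strains Slc11a2 and Csrnp2, 0.0917 Mb apart, had r = -0.649 and a Spearman coefficient of -0.409 (2-sided permutation tests with 100000 resamples, adjusted p = 0.000262 and 0.00149 over 1653 pairs), and r = -0.604 without BALB/cJ and CBA/J. Within sets r was -0.786 in inbred strains and -0.542 in CXB, but -0.0258 in AXB/BXA, 0.116 in BXD and 0.0765 in BXH; the difference between sets was not tested, and CXB has 7 strains and BXH 6. Between mice of one strain it was 0.0623. The CXB value includes CXB-3/ByJ replicate 3 and CXB-7/ByJ replicate 3. Letmd1, a mitochondrial protein gene between Slc11a2 and Csrnp2, correlated at 0.614 with Slc11a2 and at -0.551 with Csrnp2 (permutation p = 1e-05 for each, the smallest that 100000 resamples give, adjusted p = 0.000262). The Spearman coefficients were 0.432 and -0.433. Within sets r was 0.665 and -0.665 in the inbred strains, 0.726 and -0.593 in CXB and 0.162 and 0.0332 in BXD. In AXB/BXA it was 0.0287 and -0.172, and in BXH -0.912 and -0.00906, the first of the opposite sign. Between mice of one strain it was -0.101 and -0.167.

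Rnd1 and Faim2, 0.834 Mb apart, were related between strains (r = 0.620, Spearman coefficient 0.617, adjusted p = 0.000262 and 0.000533) and between mice of one strain (0.611). Every set showed a positive r, from 0.342 in CXB to 0.932 in BXH. Slc38a1 and Dip2b, a neuronal protein gene, had r = 0.651 and a Spearman coefficient of 0.598, 0.542 without CXB-3/ByJ and BXD-12/TyJ and 0.536 without the 21 mice. Slc38a1 and Mcrs1 had r = -0.588 and a Spearman coefficient of -0.309, but r was -0.333 without those 2 strains, so the size of that relation rests on them. Between mice of one strain r was 0.715 for Slc38a1 with Dip2b and -0.592 for Slc38a1 with Mcrs1. Without the 21 mice these were 0.476 and -0.283. With a strain share of 0.000682 for Slc38a1, neither relation is particular to strains. Tuba1c enters these counts and ranges of pairs, but no r over all strains is named for it, since its strain means form separate levels.

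Genes elsewhere that followed a member were counted as a description, since the interval was chosen on such associations. The median locus was related at an absolute r of 0.5 or more over strain means to 22 genes elsewhere in the genome, against 19 for all loci, and 20 against 8 without the 21 mice. Slc38a1 had 1451, Scaf11 1355 and Dip2b 768. Without the 21 mice Slc38a1 had 440, Scaf11 770 and Kmt2d 517. Endou had 8, and 10 without them. Slc38a1 and Scaf11 did not pass the strain test, with shares of 0.000682 and 0.0181. Scaf11 did not pass without the 21 mice either (share 0.0887, limma F test, adjusted p = 0.104). Where the share is near 0, strain means mostly carry differences between mice, so these counts are not of genes that follow a strain difference.

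At the edges of the interval the members just inside were Dbx2 and Ano6 at the proximal end (shares 0.367 and 0.423) and Letmd1 and Csrnp2 at the distal end (0.336 and 0.542). Just outside lay Tmem117 and Nell2 (0.359 and 0.442) and Tfcp2 and Pou6f1 (0.207 and 0.355). The shares inside and outside overlapped at both ends.

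Markers of neighbouring tissue moved with a few members. The summed thalamic markers correlated over strain means at -0.219 with Endou and -0.517 with Zfp641, and between mice of one strain at 0.620 with Endou. In the parents the sum was 188 FPKM ± 41.8 in C57BL/6J, 178 ± 14.8 in BALB/cJ, 211 ± 38.7 in DBA/2J, 240 ± 14.4 in A/J and 270 ± 43.6 in C3H/HeJ (SD, n = 3 each). Their part in the Endou and Zfp641 values was not tested.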

How the data were processed

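RNA was extracted from whole hypothalamus and made into unstranded mRNA libraries, sequenced as 50-base pairs by the study. Per the submitters' processing notes, reads were aligned to mm10 with STAR 2.3.1, assembled with Cufflinks 2.2.0 per strain, merged with GENCODE annotation and quantified with Cuffnorm 2.2.1. The deposited values are FPKM per gene and transcript, normalised by the authors, who kept rows above 0 in 100 mice and above 1 in 50. FPKM give no counts, so the depth behind each value is unknown and no counting interval is given.

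Strain tests, within-set tests and parental contrasts were fitted in limma 3.58.1 (R 4.3.3) on log2(FPKM + 1) with 99 strains and 281 mice, with Benjamini-Hochberg adjustment over all 14079 genes or 51024 transcripts and a threshold of 0.05. Correlations used Python 3.11.15 and scipy 1.17.1, with 100000 resamples. The gene-level strain test and the DBA/2J contrast were tried on simulated data, and the other fits were not. The strain test recovered 100% of 200 genes with a strain share of 0.5. The contrast recovered 93% of 200 genes with a difference of 1 log2 unit. Of the genes called, 7.54% in the strain test and 4.46% in the contrast were unchanged ones. Alternatives were 2 smaller pseudocounts, a mean of at least 1 FPKM, quantile normalization, the FPKM sum as covariate, each replicate left out, and, chosen after seeing the data, mice left out and a fit per set. GENCODE M21 and RefSeq (GRCm38) gave sequences.

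Members and lists were chosen with earlier results of these data known. Named genes were the study's list and the 12 other loci with the largest share. The 5 with the lowest share at a mean of at least 10 FPKM and the 5 with the highest mean were also named. So were those past 2 parental contrasts or past 1 by at least 1 log2 unit, the leading locus of each role list and unnamed loci. Named pairs were the strongest of those beyond the study's list. Any other was named after its values were seen.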

Additional observations from a re-analysis of the deposited data

How the results depend on the processing

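No paired analysis was possible because the labels carry no replicate numbers. Replicates were numbered in accession order and share nothing across strains. Counts below are over all 58 loci, listed ones included. The strain test passed 45 of them, and 33 to 50 under all alternatives. The median strain share (0.255) was 0.321 with the FPKM sum as covariate, 0.231 to 0.313 with a replicate left out, 0.321 without 3 mice (BXD-12/TyJ replicate 2, CXB-3/ByJ replicate 3 and CXB-7/ByJ replicate 3) and 0.312 without the 21. Within AXB/BXA 17 passed, but 27 with the covariate, 8 to 11 with a replicate left out, 26 without the 3 mice and 27 without the 21. Replicates left out gave 21 to 35 in BXD (35), 3 to 11 in BXH (15), 2 to 14 in CXB (10) and 16 to 21 among inbred strains (29). Fits per set gave 9 in BXH, also without the 3 mice, and in CXB 0, or 3 without the 3 mice; CXB had 6 without CXB-3/ByJ replicate 3. Parental counts with a replicate left out ran from 1 to 3 in DBA/2J (3) and from 3 to 5 in C3H/HeJ (6). Of 94 transcripts 47 passed with known transcripts only, where 117 were tested, and 59 without the 18 mice. The median r (0.0270) was 0.00779 after quantile normalization, 0.0247 at a mean of at least 1 FPKM, 0.0207 without BXD-12/TyJ replicate 2, 0.0219 without CXB-3/ByJ replicate 3, 0.0171 without the 3 mice, 0.0184 without the 21, and 0.0262 to 0.0307 with a replicate left out.

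For single named genes and contrasts 537 values kept their direction and side of the threshold, 25 lost the call, 13 gained it and 0 reversed. The strain calls of Pfkm, Slc48a1, Tmbim6 and Tuba1a were lost without replicate 1 and without replicate 2 of every strain. Fewer mice or transcripts explain the lower counts by construction only where they were left out; other causes were not tested. With 3 mice per strain small parental differences cannot be told from none.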
